A study of Mus musculus with 238 samples.

Results

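Etnppl encodes ethanolamine-phosphate phospho-lyase, and its row in the count table (gene identifier ENSMUSG00000019232.14, 1 of 21076 gene rows) was followed through 15 brain regions and the liver of 19-month-old C57BL/6JN mice. The row was picked by its symbol, with the results of the diet experiment already in view. For that reason the diet values below are a description and carry no test, while the levels among regions of control mice and the response to plasma were tested. RNA was measured by bulk, unstranded mRNA sequencing in 238 libraries from 16 mice. Female mice were either dietary restricted (aDR, 5 mice, labelled DR in liver) or fed ad libitum (AL, 4 mice), which gave 131 brain and 9 liver libraries. Male mice were injected retro-orbitally with plasma of young mice (YMP, 3 mice) or with PBS (4 mice), which gave 98 brain libraries. The labels name no transgene or other allele, and no degree or length of restriction. All mice of the diet experiment were female and all mice of the plasma experiment male, so sex and experiment cannot be told apart. Each mouse gave at most 1 library per region, so the spread of a group within a region joins differences between mice with those between their single libraries. P-values within a region measure that joint spread, and those across regions the spread of 1 value per mouse. The fits among regions and of the region by plasma interaction had no mouse term. Their p-values take libraries of the same mouse as independent.

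The enzyme uses pyridoxal phosphate to break phosphoethanolamine into acetaldehyde, ammonia and phosphate. Phosphoethanolamine is the first intermediate in the ethanolamine branch of membrane lipid synthesis, where it would otherwise be activated and joined to diacylglycerol to give phosphatidylethanolamine. In the brain the transcript is known mainly from astrocytes, the glial cells that support neurons, and outside the brain it is known from liver. Tissue RNA of this kind does not separate fewer astrocytes from less transcript in each of them.

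On the mouse genome (GRCm38, GENCODE M21) Etnppl lies on the plus strand at chr3:130617448-130637521 and overlaps 0 other annotated genes, so unstranded reads there can be ascribed to it. Its nearest neighbours are Col25a1, 17570 bases upstream, and Ostc, 58390 bases downstream. The annotation lists 6 transcripts, of which 4 are protein-coding, and Etnppl-201 has 13 exons and a spliced length of 4468 bases. RefSeq (GRCm38.p6) places transcript starts at 130617448 and 130617575, and counts per gene sum over both. The stretches before these starts are shown because they are the regulatory sequence nearest to the transcript whose level is reported, and because the transcripts counted together begin beside them. They are given on the plus strand, in lower case, and nothing in them is capitalised because none of the motifs searched falls wholly inside the printed bases.
Etnppl upstream of the 5′ start, chr3:130617198-130617447: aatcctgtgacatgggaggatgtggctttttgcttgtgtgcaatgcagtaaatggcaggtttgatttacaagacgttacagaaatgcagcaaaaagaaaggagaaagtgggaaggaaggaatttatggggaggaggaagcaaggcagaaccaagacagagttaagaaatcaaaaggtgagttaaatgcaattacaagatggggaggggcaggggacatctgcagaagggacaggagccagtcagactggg
Etnppl upstream of the 3′ start, chr3:130617475-130617574: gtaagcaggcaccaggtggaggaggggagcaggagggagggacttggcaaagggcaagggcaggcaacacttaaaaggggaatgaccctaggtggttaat

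Known motifs were searched on both strands of 2 promoter windows, the 250 bases before each start. The glucocorticoid response element palindrome (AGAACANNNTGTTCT), its single arm (AGAACA, which the palindrome contains), the E-box (CACGTG), the D-box (TTATGTAA) and the cAMP response element (TGACGTCA) had 0 matches in both windows. So did the PPAR response element (AGGTCANAGGTCA), the CCAAT box (CCAAT) and the TATA box (TATAAA). A single GC box (GGGCGG) was found, 128 bases before the 3′ start and overlapping the 5′ start. In the same 250 bases of 32851 promoters, the palindrome was held by 0.00913%, its arm by 16.1% and the E-box by 6.02%. The D-box was held by 0.819% and the cAMP response element by 1.55%. The PPAR element was held by 0.0335%, the CCAAT box by 33.8%, the GC box by 32.7% and the TATA box by 12.4%. These matches describe letters in a window only.

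The libraries held between 0.606 and 32.4 M (mega) counts, 8.44 M at the median, with fewer than 2 M in 6 of them. Etnppl had 26 to 3569 counts per library with a median of 460, and 0 libraries had none. The library with 26 counts was also the smallest, olfactory bulb of YMP mouse 73. All 48 marker genes chosen to check the region labels had a higher mean in their own region than the median of the others. This does not check each library. A few libraries stood apart, and for some of them results are also given without them. In the pons library of aDR mouse 67 the 10 most abundant genes took 23.4% of the counts, against 5.72 to 7.12% in pons of the other diet mice, and the myelin gene Mbp stood at 3271 CPM (a gene's counts over the library's total in M) against 12418 to 20762 CPM. In anterior hippocampus the 3 libraries highest in Etnppl (aDR mouse 67, PBS mice 72 and 84) held 123 to 290 CPM of Tcf7l2, a transcription factor abundant in thalamus, against 18.9 to 156 CPM in the other 13 libraries. Those same 3 libraries held 20.3 to 69.8 CPM of Neurod6, a factor of excitatory forebrain neurons, against 57.2 to 311 CPM. Thalamus itself had 889 to 1225 CPM of Tcf7l2. In pons, AL mouse 68, aDR mouse 64 and YMP mouse 77 had the highest Etnppl of their groups. Neuron markers in these libraries summed to 5145, 5085 and 5648 CPM. Pons of the other mice, apart from aDR mouse 67, had 8488 to 10536 CPM.

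In control mice (AL and PBS together) Etnppl was highest in cerebellum, thalamus and hypothalamus and lowest in posterior hippocampus and entorhinal cortex. The means were 148 ± 17.4 CPM (SD, n = 7) in cerebellum, 139 ± 14.6 CPM (n = 8) in thalamus and 115 ± 16.6 CPM (n = 7) in hypothalamus. Medulla followed with 77.2 ± 20.2 CPM (n = 8), then pons with 65.0 ± 18.0 CPM (n = 7). This ordering put the hindbrain and the diencephalon on top, and these 3 leading regions held ranks 1, 2 and 3 in AL, PBS, aDR and YMP mice alike. Olfactory bulb had 59.7 ± 4.43 CPM (n = 8), SVZ 55.8 ± 16.5 CPM (n = 8) and anterior hippocampus 38.9 ± 30.5 CPM (n = 8). Choroid plexus had 35.7 ± 9.89 CPM (n = 8), caudate putamen 30.0 ± 12.4 CPM (n = 8) and motor cortex 29.5 ± 8.13 CPM (n = 8). The choroid plexus libraries were mixed. Over all groups their choroid plexus markers summed to 151 to 15218 CPM. Neuron markers there summed to 6692 CPM at the median, beside 6140 CPM in thalamus. The choroid plexus sum also reached 19655 CPM in SVZ and 18618 CPM in corpus callosum. Values under the choroid plexus label are thus not those of that tissue alone. Corpus callosum had 27.8 ± 7.28 CPM (n = 6), visual cortex 25.4 ± 4.46 CPM (n = 7), entorhinal cortex 22.1 ± 9.94 CPM (n = 7) and posterior hippocampus 20.4 ± 6.09 CPM (n = 7). The cortical regions, corpus callosum and posterior hippocampus thus lay at the bottom, and the highest mean was 7.25 times the lowest. Over all groups, corpus callosum libraries held 81.6 to 337 CPM of Drd1, a receptor gene of striatal neurons, beside 92.1 to 327 CPM in caudate putamen. The corpus callosum level is thus not that of white matter alone.

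Neighbours in this order mostly did not differ beyond their spread within mice. In 3 of 14 neighbouring pairs the mean difference exceeded its SD: thalamus over hypothalamus (0.30 ± 0.12 log2 units, higher in 7 of 7 mice), hypothalamus over medulla (0.60 ± 0.34, 7 of 7 mice) and visual over entorhinal cortex (0.43 ± 0.35, 5 of 6 mice). Cerebellum and thalamus, by contrast, differed by 0.063 ± 0.14 log2 units, with cerebellum higher in 4 of 7 mice. Anterior hippocampus varied most, with 2 of its 8 libraries far above the rest: AL mice had 15.7, 27.8, 24.7 and 28.6 CPM, and PBS mice 102, 14.3, 30.1 and 68.2 CPM.

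The differences among regions were tested with edgeR's quasi-likelihood test, with Benjamini-Hochberg adjustment over 15321 genes. Each region was set against the mean of the others, in a main fit without a mouse term. Regional differences were the rule in these tissues: the test over all regions called 99.6% of genes, Etnppl included (adjusted p = 6.10e-35). Etnppl was called higher in 5 regions and lower in 7. Cerebellum stood 1.67 log2 units above the others (SE 0.13, adjusted p = 3.42e-22, higher in 7 of 7 mice), where 35.6% of genes were called higher. Thalamus stood 1.67 above (SE 0.12, adjusted p = 4.24e-23, 8 of 8 mice), beside 29.7% of genes, and hypothalamus 1.29 above (SE 0.13, adjusted p = 1.15e-14, 7 of 7 mice), beside 30.9%. Medulla (0.76, SE 0.13, adjusted p = 3.81e-07, 8 of 8 mice) and pons (0.56, SE 0.15, adjusted p = 0.000824, 6 of 7 mice) were also called, where 35.7% and 31.4% of genes were. Pons was not called in PBS mice alone (0.22, adjusted p = 0.527).

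On the lower side, posterior hippocampus was 1.25 log2 units under the other regions (difference -1.25, SE 0.18, adjusted p = 2.72e-09, lower in 7 of 7 mice), where 22.4% of genes were called lower. Entorhinal cortex was next (-1.24, SE 0.18, adjusted p = 8.96e-09, 7 of 7 mice, beside 26.8% of genes), followed by visual cortex (-0.94, SE 0.18, adjusted p = 3.46e-06, 7 of 7 mice, beside 29.5%). Corpus callosum (-0.83), motor cortex (-0.71), caudate putamen (-0.65) and choroid plexus (-0.43) were called lower at adjusted p of 0.000143, 8.22e-05, 0.000178 and 0.0159, beside 22.6%, 31.4%, 32.5% and 20% of genes. Motor cortex and choroid plexus lost the call in PBS mice alone (-0.54, adjusted p = 0.0576, and -0.38, adjusted p = 0.198), and choroid plexus also in AL mice alone (-0.48, adjusted p = 0.0558) and without PBS mouse 84 (-0.37, adjusted p = 0.0659). Olfactory bulb (0.25, adjusted p = 0.104), SVZ (0.18, adjusted p = 0.309) and anterior hippocampus (-0.33, adjusted p = 0.0785) were not called, in tests that called 36.7% and 32.4% of genes higher and 18.4% lower. With the mouse as a block, anterior hippocampus was called lower (-0.40, adjusted p = 0.0227), as it was without PBS mouse 72 (-0.63, adjusted p = 0.000386) or without PBS mouse 84 (-0.46, adjusted p = 0.0285). Without PBS mouse 72, olfactory bulb (0.30, adjusted p = 0.0297) and SVZ (0.32, adjusted p = 0.0397) were called higher, and olfactory bulb also in AL mice alone (0.39, adjusted p = 0.0443).

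The regional profile was alike in the groups. Over the 15 regions, Pearson r between mean levels was 0.97 for AL with PBS mice (Spearman rho 0.97) and 0.94 for aDR with YMP mice (rho 0.84). The PBS mean was above the AL mean in 14 of 15 regions, a difference that cannot be told apart from sex and experiment. Etnppl followed the summed level of 16 astrocyte markers more loosely, with an r of 0.58 in AL mice and 0.53 in PBS mice. Cerebellum and medulla illustrate this: their astrocyte sums were 8178 and 8478 CPM, and their Etnppl means 148 and 77.2 CPM. Points in these correlations share libraries and depth, and no p is given.

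**Figure D1:**
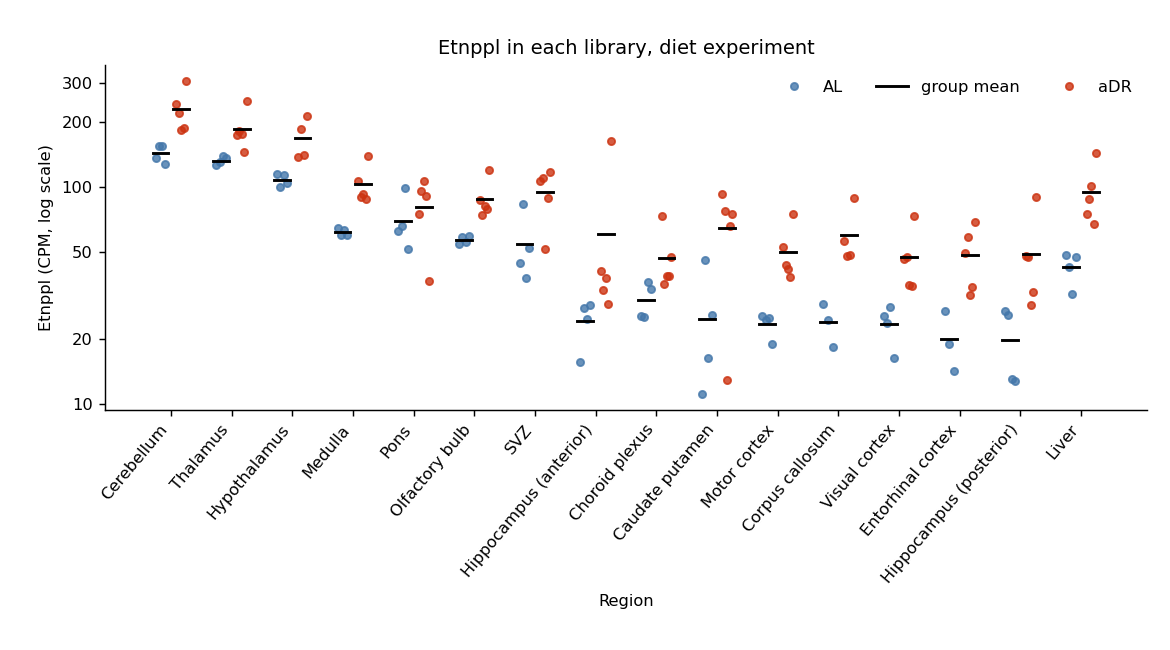
Etnppl level (CPM, log axis) in each library of the diet experiment, by region in the order of control levels, with AL mice in blue, aDR mice (DR in liver) in red and group means as bars. The aDR libraries lie above the AL libraries without overlap in 11 of 15 brain regions and in liver, and the single low aDR points in caudate putamen (12.9 CPM) and pons (37.0 CPM) are visible.

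Etnppl was higher in aDR than in AL mice in 15 of 15 brain regions. Over all regions of each mouse together, the 5 aDR mice had 5.87, 6.01, 6.22, 6.37 and 6.72 log2 CPM, and the 4 AL mice 5.23, 5.35, 5.41 and 5.54 log2 CPM. The groups did not overlap, as was so in the same direction for 4.16% of the 15616 genes tested. Their means were 6.24 ± 0.33 (SD, n = 5) and 5.38 ± 0.13 (SD, n = 4), a difference of 0.86 log2 units (SE 0.16), or 1.81-fold. Etnppl is among the 144 genes (0.922% of those tested) that limma called across regions for diet, which is how it came to be chosen, and nothing is read from that call. The call itself was lost when any 1 of 7 of the 9 mice was left out (all but mice 64 and 67). Leaving out aDR mouse 67, the highest of its group, gave a difference of 0.74 log2 units.

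Within regions the groups were fully separated in 11 of 15. The percentage beside each such region below is the share of all genes tested there that were separated in the same direction, and since the gene was chosen on this contrast nothing is read from the count. The log2 fold change ran from 0.29 to 1.42 with a median of 0.84.

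In the regions richest in Etnppl the fold changes were among the smaller ones. Cerebellum had 137, 154, 155 and 128 CPM in AL mice and 240, 220, 184, 187 and 309 CPM in aDR mice, a log2 fold change of 0.67 (SE 0.13, 1.77% of genes). Thalamus had 126, 130, 138 and 136 CPM against 174, 181, 176, 144 and 248 CPM (0.50, SE 0.12, 0.595% of genes). Every restricted mouse was above every freely fed mouse in both, by a narrow margin in thalamus. Hypothalamus had 115, 99.8, 113 and 104 CPM against 138, 185, 140 and 211 CPM (0.64, SE 0.13, 1.72% of genes). Medulla had 64.7, 60.4, 63.6 and 59.9 CPM against 107, 90.5, 92.7, 87.8 and 138 CPM (0.76, SE 0.12, 1.04% of genes). AL mice were closely grouped in both, and the groups were apart. Pons was the exception among these regions, with 62.6, 66.2, 99.0 and 51.7 CPM in AL mice and 75.4, 96.3, 107, 90.9 and 37.0 CPM in aDR mice (0.29, SE 0.27). Its lowest library was that of aDR mouse 67, the library that stood apart, and the lowest aDR value lay under all AL values. Without it the pons log2 fold change was 0.45, and the difference across regions 0.89. The highest pons values of both groups, in AL mouse 68 and aDR mouse 64, came from libraries low in neuron markers. With any 1 mouse left out the pons log2 fold change ran from 0.17 to 0.48, the latter without AL mouse 68.

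Cortex, hippocampus and corpus callosum, where Etnppl is low, had the larger fold changes. Motor cortex had 25.5, 24.3, 24.9 and 19.0 CPM in AL mice and 52.8, 43.8, 41.7, 38.6 and 75.3 CPM in aDR mice, a log2 fold change of 1.15 (SE 0.17, 1.92% of genes). Visual cortex had 25.5, 23.7, 28.1 and 16.3 CPM against 46.8, 47.7, 35.3, 34.9 and 73.8 CPM (1.15, SE 0.19, 1.75% of genes). Both cortices were separated, with the lowest restricted mouse above the highest freely fed mouse. Entorhinal cortex had 27.0, 18.9 and 14.2 CPM against 49.6, 58.7, 31.9, 34.5 and 68.7 CPM (1.36, SE 0.30, 2% of genes). Corpus callosum had 28.9, 24.3 and 18.4 CPM against 56.6, 48.0, 48.6 and 88.7 CPM (1.39, SE 0.26, 2.16% of genes). These regions had 3 AL mice each, and again no overlap. The entorhinal libraries were uneven. In the same order of mice, Mbp was at 602, 762 and 239 CPM in AL mice and 3209, 7466, 215, 761 and 692 CPM in aDR mice. Neurod6 was at 58.0, 69.8 and 12.9 CPM against 24.6, 53.4, 0.62, 48.9 and 47.5 CPM. The part of these genes in the entorhinal difference was not tested. Posterior hippocampus had 26.9, 25.9, 13.1 and 12.8 CPM against 47.9, 47.7, 28.8, 32.7 and 89.8 CPM (1.32, SE 0.35, 1.01% of genes). Anterior hippocampus had 15.7, 27.8, 24.7 and 28.6 CPM against 41.1, 33.7, 38.0, 28.9 and 163 CPM (1.33, SE 0.49, 0.471% of genes). The anterior groups were separated by a sliver, and the value of 163 CPM belongs to aDR mouse 67, whose library had 123 CPM of Tcf7l2 and 46.9 CPM of Neurod6. AL mice 68 and 69 had more Tcf7l2 there, 156 and 145 CPM, at 24.7 and 28.6 CPM of Etnppl. Without that mouse the anterior log2 fold change was 0.60.

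The remaining regions gave a less even picture. Caudate putamen had 11.2, 45.9, 16.3 and 25.7 CPM in AL mice and 92.8, 77.4, 12.9, 66.4 and 75.0 CPM in aDR mice (1.42, SE 0.49). Aside from mouse 64, at 12.9 CPM, all aDR mice lay above all AL mice. Mbp there had a median of 12945 CPM in the aDR libraries without mouse 64 and 8991 CPM in AL libraries. The library of mouse 64 had an astrocyte sum of 4060 CPM, the lowest of its group, beside 4087 to 5837 CPM in AL mice. The part of these levels in the caudate putamen difference was not tested. Olfactory bulb had 54.9, 58.6, 55.9 and 59.7 CPM against 86.9, 74.5, 81.7, 79.6 and 120 CPM (0.64, SE 0.12, 2.98% of genes). SVZ had 44.9, 83.6, 38.1 and 52.4 CPM against 106, 110, 52.1, 89.3 and 118 CPM (0.84, SE 0.27). Olfactory bulb was separated, while in SVZ 1 aDR mouse lay within the AL range. Tcf7l2 was uneven in SVZ, at 30.7, 317, 37.3 and 61.0 CPM in AL mice. In the aDR mice, in the same order as above, it was at 283, 221, 29.1, 112 and 25.9 CPM. Its part in the SVZ difference was not tested. Choroid plexus had 25.4, 25.3, 36.6 and 33.8 CPM against 73.8, 35.9, 39.0, 39.0 and 47.5 CPM (0.64, SE 0.22), with a slight overlap. Without aDR mouse 61 its log2 fold change was 0.41, in libraries that were mixed, as given with the levels.

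**Figure D2:**
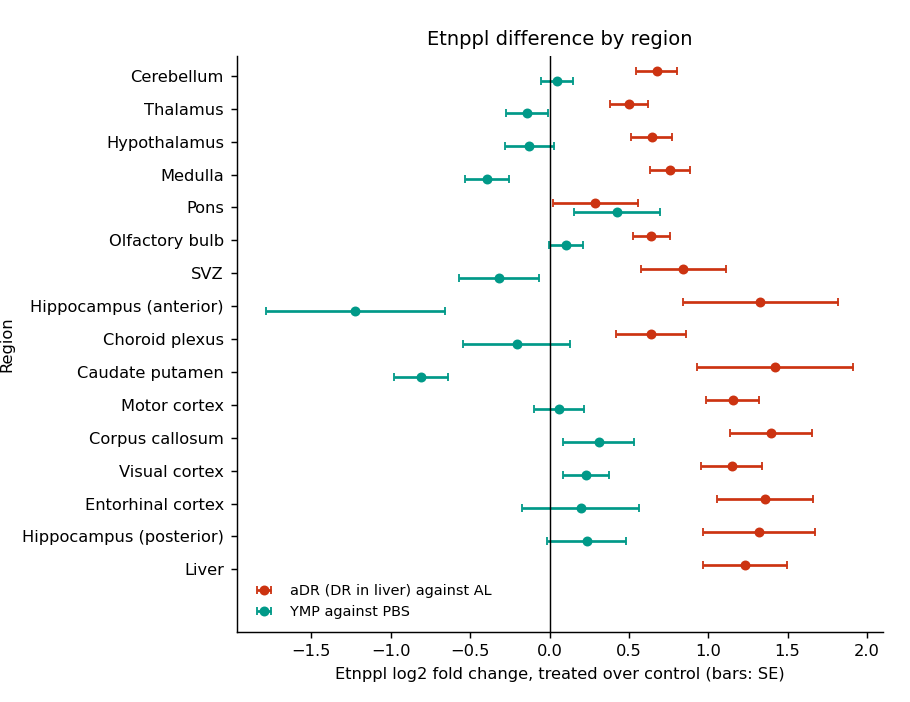
Log2 fold change of Etnppl, treated over control, with its SE, for each region, in the diet experiment (red) and the plasma experiment (green). All 15 brain regions and liver lie to the right of 0 for diet, from 0.29 in pons to 1.42 in caudate putamen, while the plasma values lie on both sides of 0.

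Across the 15 regions the diet log2 fold change was lower where the level in PBS mice, which took no part in that contrast, was higher (Pearson r = -0.74, Spearman rho = -0.70, n = 15 regions). The regions share mice, and this is a description. The aDR mice were also compared by how often they stood out. Each of the 5 lay above every AL mouse in 12 to 14 regions. Mouse 67 was the highest aDR mouse in 12 of its 15 regions. Of the variance within a treatment and region, 25.4% lay between mice in the diet experiment and 22.1% in the plasma experiment. The SD between mice was 0.24 and 0.20 log2 units, beside 0.41 and 0.38 within mice.

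**Figure D3:**
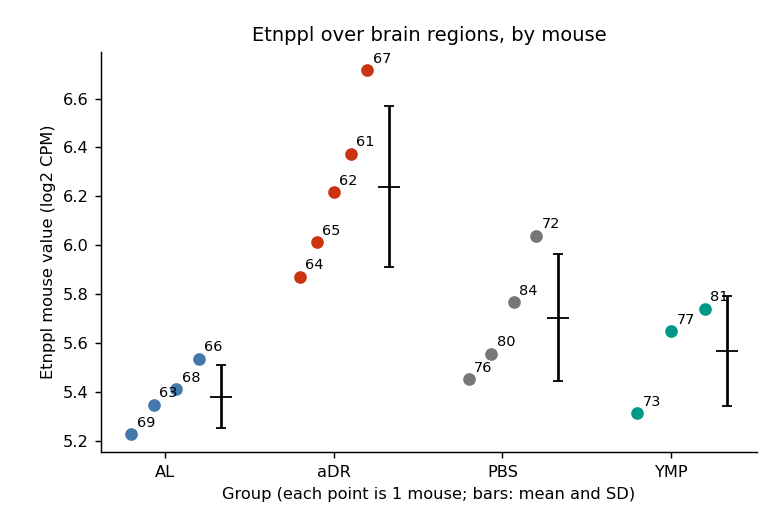
Etnppl over all brain regions of each mouse (log2 CPM, adjusted for the regions it has), with 1 numbered point per mouse, sorted by value within a group, and the mean and SD of each group beside it. The 5 aDR mice lie between 5.87 and 6.72, above the 4 AL mice at 5.23 to 5.54, whereas YMP and PBS mice overlap.

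No astrocyte marker was called for diet. The summed level of 16 markers, adjusted for region, was 12.50 to 12.60 log2 CPM in aDR mice and 12.51 to 12.55 log2 CPM in AL mice, and within regions it differed by between -0.23 (pons) and 0.094 log2 units. Of the 16 markers limma called 0, 3 had an unadjusted p under 0.05, 8 were higher in aDR mice, and their median difference was 0.0011 log2 units beside -0.0062 over all genes. The largest single differences were in Gjb6 (0.28, SE 0.061, adjusted p = 0.0781), Aqp4 (-0.22, SE 0.12, adjusted p = 0.391) and Fgfr3 (0.18, SE 0.047, adjusted p = 0.116). Gjb6 encodes a gap junction protein, Aqp4 a water channel and Fgfr3 a growth factor receptor. These 3 were called by voom with the mouse as a block, a fit that called 9.44% of all genes. Divided by the astrocyte sum, Etnppl was higher in aDR mice in all 15 brain regions, by 0.40 to 1.26 log2 units. These ratios hold the same Etnppl values that the gene was chosen on, and the part of astrocyte content in the diet difference was not tested.

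Other cell types were set beside it in the same way. Of the 5 endothelial markers 2 were called lower in aDR mice, Cldn5 (-0.48, SE 0.084, adjusted p = 0.0402) and Flt1 (-0.26, SE 0.044, adjusted p = 0.0382), beside the 0.922% of all genes called in either direction. Pecam1 stood at -0.26 (SE 0.067, adjusted p = 0.109), while the other two differences were positive, at 0.13 in Slco1a4 (SE 0.056, adjusted p = 0.288) and 0.020 in Ly6c1 (SE 0.097, adjusted p = 0.947). Voom with the block called Cldn5, Flt1 and Pecam1 lower and Slco1a4, a transporter of organic anions, higher. Cldn5 is a tight junction protein and Flt1 a receptor for vascular growth factors. The count of 2 fell to 0 or 1 when any of the 9 mice was left out, and was 0 without choroid plexus and corpus callosum and 1 without anterior hippocampus and caudate putamen. The endothelial sum was 7.36 to 7.50 log2 CPM in aDR and 7.39 to 7.66 in AL mice, and its part in the Etnppl difference was not tested. Of the neuron (7), oligodendrocyte (6), microglia (5) and choroid plexus (6) markers, limma called 0 for diet, and 0, 0, 1 and 0 had an unadjusted p under 0.05. Voom with the block also called 0 of these, and without it 1, Cx3cr1 of microglia.

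Liver had a level of Etnppl between those of the brain regions. AL livers had 48.6, 43.0, 32.3 and 47.7 CPM, under 7 and over 8 of the brain region means of AL mice. DR livers had 75.3, 88.1, 102, 67.4 and 144 CPM. All DR values were above all AL values, with a log2 fold change of 1.23 (SE 0.26), or 2.35-fold, where 1.55% of genes were separated upwards. Without mouse 67 it was 0.97. As in brain, this contrast was in view when the gene was chosen. The tissue was checked by its markers: 5 hepatocyte markers summed to 71652 to 97694 CPM, while Ntsr2 and Mlc1, astrocyte markers, had 0 counts in all 9 livers and Gfap at most 0.818 CPM. The 16 astrocyte markers as a list are not absent from liver, where they summed to 957 to 1554 CPM and 8 of 16 passed the filter on low counts. Most of that sum was Aldh1l1, a folate enzyme, with a median of 830 CPM in liver and 63.6 CPM in brain, followed by Slc1a2 and Slc4a4 at 142 and 119 CPM in liver.

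No other gene of the ethanolamine pathway was called for diet in brain. Of 18 genes of ethanolamine and phosphatidylethanolamine metabolism, limma called 0 for diet. The unadjusted p was under 0.05 in 2, 11 of the 18 were higher in aDR mice, and the median difference was 0.012 log2 units beside -0.0062 over all genes. The largest differences were in Faah, which hydrolyses anandamide to release ethanolamine (0.13, SE 0.060, adjusted p = 0.344), Cept1, which joins activated ethanolamine or choline to diacylglycerol (-0.12, SE 0.035, adjusted p = 0.150), and Pemt, which methylates phosphatidylethanolamine to phosphatidylcholine (0.12, SE 0.080, adjusted p = 0.522). Etnk1 and Etnk2, the kinases that make phosphoethanolamine, stood at -0.064 (SE 0.024, adjusted p = 0.229) and 0.083 (SE 0.11, adjusted p = 0.768), and Pcyt2, which activates it, at 0.0048 (SE 0.037, adjusted p = 0.967). Voom with the mouse as a block called 1, Cept1, and without the block 3, adding Etnk1 and the dehydrogenase Adh5. Among 8 genes of the choline branch limma again called 0, with 2 at an unadjusted p under 0.05 and 7 higher. Chkb, a choline kinase, was the largest (0.13, SE 0.031, adjusted p = 0.101), followed by Pcyt1a, the choline-phosphate activating enzyme (0.095, SE 0.040, adjusted p = 0.283), and Chpt1 (0.045, SE 0.044, adjusted p = 0.675). Voom with the block called 1, Chkb, and without it 2, adding Pcyt1a.

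Etnppl belongs to the class III family of pyridoxal phosphate-dependent aminotransferases, as do Phykpl, Agxt2, Oat and Abat. They were listed together with Alas1, which also uses pyridoxal phosphate but belongs to a different family, and 4 of these 5 genes, all but Agxt2, were expressed highly enough in brain to be tested. None of the 4 was called by limma for diet (0 called, 1 with an unadjusted p under 0.05): Alas1 stood at 0.076 (SE 0.029, adjusted p = 0.241), Oat at -0.042 (SE 0.030, adjusted p = 0.538) and Phykpl at 0.021 (SE 0.031, adjusted p = 0.787). Voom called 1, Alas1, with or without the block. In liver all 5 were tested and 1 was called by edgeR, Alas1, the enzyme that starts haem synthesis, so that 0 of the 4 class III genes were called there. Its level was 525 to 694 CPM in DR and 204 to 378 CPM in AL livers, a log2 fold change of 1.30 (SE 0.20, adjusted p = 0.0308, higher in 5 of 5 DR mice), beside 0.22% of genes called in liver. The call was lost when mouse 62, 63, 64, 65, 66 or 69 was left out. Phykpl, a phospho-lyase for a phosphorylated lysine derivative, was at 0.15 in liver (SE 0.13, adjusted p = 0.842).

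Of the ethanolamine genes 14 were tested in liver and 0 were called by edgeR, with 2 at an unadjusted p under 0.05 and 10 higher. The largest difference was in Gde1, a glycerophosphodiesterase, at 50.8 to 109 CPM in DR and 23.9 to 36.3 CPM in AL livers (1.29, SE 0.26, adjusted p = 0.0802). DESeq2 called it (adjusted p = 0.000793), as 1.9% of genes. Etnk2 stood at 0.55 (SE 0.31, adjusted p = 0.669) and Selenoi, the ethanolamine phosphotransferase, at -0.37 (SE 0.15, adjusted p = 0.493). Of 7 choline genes tested in liver 0 were called by edgeR or DESeq2, with 2 at an unadjusted p under 0.05, Slc44a1 (-0.71, SE 0.32, adjusted p = 0.525) and Pcyt1a (0.34, SE 0.12, adjusted p = 0.401).

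**Figure D4:**
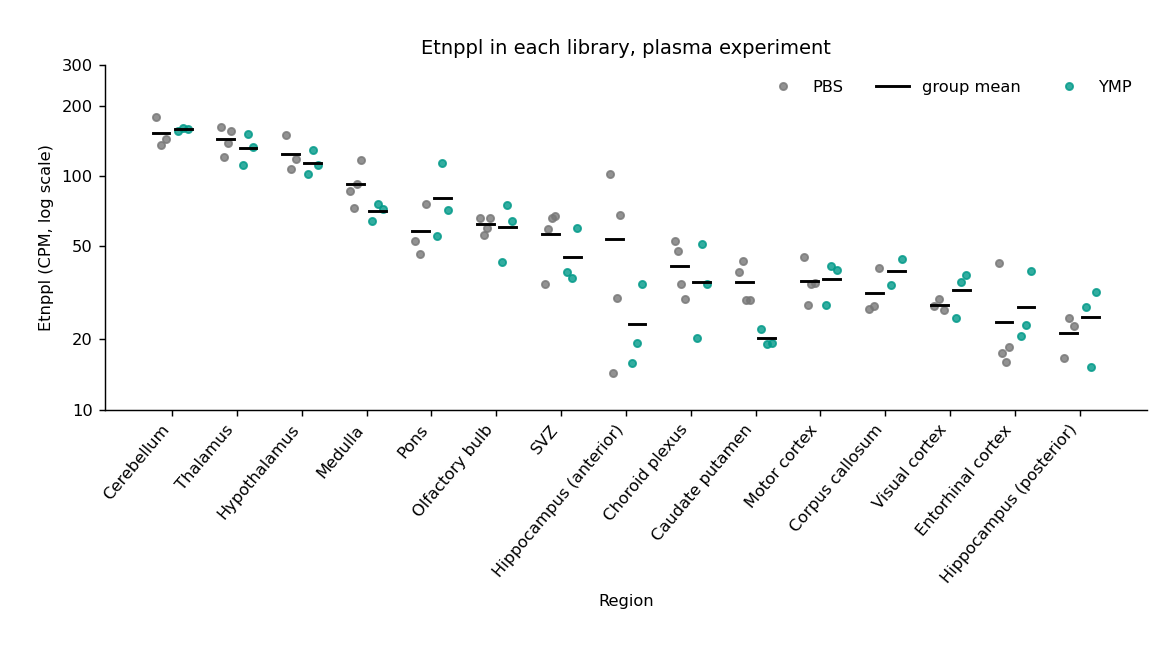
Etnppl level (CPM, log axis) in each library of the plasma experiment, by region in the order of control levels, with PBS mice in grey, YMP mice in green and group means as bars. The groups overlap in 14 of 15 regions, and in caudate putamen the YMP values (19.0 to 22.1 CPM) lie under the PBS values (29.4 to 43.5 CPM).

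Plasma of young mice was not followed by a change of Etnppl that passed the test. Across regions the YMP mice had 5.31, 5.65 and 5.74 log2 CPM and the PBS mice 5.45, 5.56, 5.77 and 6.04 log2 CPM. The groups overlapped, with 1 YMP mouse under every PBS mouse and 2 within their range. The difference was -0.14 log2 units (SE 0.16, adjusted p = 0.843 by limma, unadjusted p = 0.421), and 2 SE either side of it reach from -0.46 to 0.18. Etnppl was higher in YMP mice in 8 regions and lower in 7. Across regions limma called 0% of 15768 genes for plasma, with 1275 at an unadjusted p under 0.05.

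Within regions edgeR called Etnppl in 0 of 15, with adjusted p of 0.468 or more, and 2 regions had an unadjusted p under 0.05. These tests called 0% of genes in 13 regions, 0.00738% in cerebellum and 0.184% in corpus callosum. Caudate putamen had 38.8, 43.5, 29.4 and 29.4 CPM in PBS mice and 22.1, 19.0 and 19.4 CPM in YMP mice. The YMP mice were below all PBS mice, as 6.37% of genes were in this region, by -0.81 log2 units (SE 0.17, adjusted p = 0.474, lower in 3 of 3 YMP mice). No gene of this region was called by edgeR (0%), whereas DESeq2 called Etnppl (-0.81, adjusted p = 0.0176) among 73 genes, or 0.551%. Over edgeR and DESeq2, other settings and mice left out, the adjusted p there ranged from 0.0176 to 0.834. The astrocyte sum was also lower in YMP mice there, by 0.32 log2 units (difference -0.32), Drd1, a receptor of striatal neurons, was at 205 to 327 CPM in YMP and 92.1 to 303 CPM in PBS mice, and Mbp at 4830 to 8265 and 7446 to 19726 CPM. The part of these genes in the Etnppl difference was not tested. Divided by the astrocyte sum, Etnppl was lower by 0.46 log2 units (difference -0.46), without overlap.

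Medulla had 86.5, 73.2, 92.4 and 117 CPM in PBS mice and 64.4, 76.0 and 72.7 CPM in YMP mice (-0.39, SE 0.14, adjusted p = 0.468 by edgeR and 0.343 by DESeq2). The groups overlapped, since 1 YMP mouse was above the lowest PBS mouse. The largest difference in size was in anterior hippocampus, with 102, 14.3, 30.1 and 68.2 CPM in PBS mice and 15.8, 19.2 and 34.6 CPM in YMP mice (-1.22, SE 0.56, adjusted p = 0.683). It rests on PBS mice 72 and 84, whose libraries there were high in Tcf7l2, and without mouse 72 it was -0.74. The difference across regions was -0.015 (adjusted p = 0.992) without anterior hippocampus and caudate putamen.

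Elsewhere the groups overlapped. Cerebellum had 180, 137 and 144 CPM in PBS and 156, 161 and 159 CPM in YMP mice (0.047, SE 0.10). Thalamus had 163, 120, 140 and 157 CPM against 112, 152 and 134 CPM (-0.14, SE 0.13), and hypothalamus 150, 107 and 118 CPM against 102, 129 and 112 CPM (-0.13, SE 0.15). So the regions richest in Etnppl differed by less than their spread. Pons had 52.8, 46.6 and 76.2 CPM against 55.6, 114 and 72.0 CPM (0.42, SE 0.27), which became 0.060 without YMP mouse 77 and 0.68 without PBS mouse 84. Olfactory bulb had 65.9, 56.1, 60.3 and 66.5 CPM against 42.9, 75.4 and 64.3 CPM (0.10, SE 0.11). SVZ had 34.5, 59.4, 65.9 and 67.3 CPM against 38.7, 36.6 and 60.3 CPM (-0.32, SE 0.25), and choroid plexus 52.7, 47.6, 34.5 and 29.8 CPM against 20.3, 51.3 and 34.6 CPM (-0.21, SE 0.34). YMP mice lay outside the PBS range on 1 side in pons and choroid plexus, on both sides in olfactory bulb and not at all in SVZ.

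In the cortical regions, posterior hippocampus and corpus callosum the YMP and PBS values overlapped as well. Motor cortex had 44.9, 28.2, 34.5 and 34.7 CPM in PBS mice and 28.0, 41.1 and 39.5 CPM in YMP mice (0.061, SE 0.16), and visual cortex 27.8, 29.6 and 26.7 CPM against 24.7, 35.1 and 37.6 CPM (0.23, SE 0.15). Entorhinal cortex had 42.7, 17.4, 15.9 and 18.5 CPM against 20.8, 22.9 and 39.1 CPM (0.20, SE 0.37). Its highest value was that of PBS mouse 72, and without it the log2 fold change was 0.65. The entorhinal library of that mouse held 2263 CPM of Mbp, and those of PBS mice 76, 80 and 84 held 511, 642 and 560 CPM. Corpus callosum had 26.9, 27.8 and 40.5 CPM against 34.3 and 44.1 CPM (0.31, SE 0.22), and posterior hippocampus 16.6, 24.7 and 22.8 CPM against 27.6, 15.2 and 31.9 CPM (0.23, SE 0.25). The posterior value was 0.029 without YMP mouse 81 and 0.45 without YMP mouse 77. Whether the plasma difference varied between regions was tested by an edgeR interaction, which did not call Etnppl (adjusted p = 0.623, unadjusted p = 0.0439) and called 124 of 15768 genes, or 0.786%.

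No gene of the pathway or astrocyte lists was called under plasma by limma. It called 0 of the 18 ethanolamine genes, 0 of 8 choline genes, 0 of the 4 pyridoxal phosphate enzymes and 0 of 16 astrocyte markers, with 2, 1, 0 and 2 at an unadjusted p under 0.05. Voom with the mouse as a block called 0, 1, 0 and 0 of them, and without the block 1, 3, 1 and 3. Etnk2 (-0.41, SE 0.098, adjusted p = 0.384), Phospho1, a phosphatase of phosphoethanolamine (-0.37, SE 0.10, adjusted p = 0.456), and Etnk1 (-0.15, SE 0.21, adjusted p = 0.863) had the largest differences among the ethanolamine genes. In the choline branch these were Chdh, which oxidises choline (-0.21, SE 0.063, adjusted p = 0.484), Chpt1 (-0.12, SE 0.059, adjusted p = 0.649) and Chka (0.11, SE 0.065, adjusted p = 0.694), and Chdh was the gene voom called with the block. Gfap, the astrocyte filament protein, stood at -0.36 (SE 0.092, adjusted p = 0.422) and Aqp4 at -0.17 (SE 0.087, adjusted p = 0.660). Among the pyridoxal phosphate enzymes Oat (-0.052), Phykpl (0.044) and Abat (-0.035) had adjusted p of 0.745, 0.802 and 0.876. The astrocyte sum was 12.46 to 12.49 log2 CPM in YMP and 12.50 to 12.58 log2 CPM in PBS mice. The choroid plexus sum was also lower in YMP mice, at 4.19 to 5.02 against 5.50 to 6.79 log2 CPM. Of its 6 markers limma called 0, 5 had an unadjusted p under 0.05 and voom called 6 with or without the block, and their part in the Etnppl values was not tested.

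Genes whose levels most resembled those of Etnppl were found in 2 ways among 13962 expressed genes. Over the 15 region means of control mice, the highest Pearson r were with Trim26 (0.94), a tripartite motif protein, Patj (0.93), a scaffold of tight junctions and cell polarity, Lrch1 (0.92), Slc41a3 (0.91) and Slc35g2 (0.91), the last being members of solute carrier families. Of these 5 none was called for diet or plasma across regions (adjusted p from 0.267 to 0.936 for diet and 0.345 to 0.870 for plasma). Patj was the furthest of the 5 from 0 under plasma, at -0.48 (SE 0.10, adjusted p = 0.345 by limma, not called).

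Over the deviations of the 229 brain libraries from their group means, the highest r were with Selenop (0.75), which carries selenium in plasma, Ccdc152 (0.74), Tsc22d3 (0.72), Gjb6 (0.70) and Heph (0.70), a copper-dependent iron oxidase. Selenop and Ccdc152 overlap at their ends on opposite strands, and unstranded reads from the shared stretch cannot be told apart. Heph overlaps 3 other annotated genes, and of the genes named for their region means Patj overlaps 3 and Trim26 and Lrch1 1 each. Tsc22d3, known as a glucocorticoid-induced leucine zipper protein, was called for diet, as 0.922% of all genes were. The aDR mice had 7.31 to 7.63 and AL mice 6.93 to 7.05 log2 CPM, a difference of 0.50 (SE 0.069, adjusted p = 0.0208 by limma, higher in 5 of 5 aDR mice). Gjb6 was not called, at 6.54 to 6.82 log2 CPM in aDR and 6.38 to 6.48 in AL mice (0.28, adjusted p = 0.0781). Neither gene overlapped between the groups, as was so in this direction for 4.16% of all genes. Selenop, Ccdc152 and Heph stood at 0.071, 0.060 and 0.053 for diet (adjusted p = 0.541, 0.676 and 0.852). Under plasma the 5 genes ranged from -0.19 (Heph) to 0.22 (Tsc22d3), with adjusted p from 0.644 to 0.967. The 16 astrocyte markers had a median r with Etnppl of 0.40 over these deviations and 0.43 over region means, beside 0.0071 and 0.037 for all genes. They differed widely among themselves. Over region means r ran from -0.88 (Slc1a2) to 0.77 (Slc4a4), with Gfap at -0.076, and over deviations from -0.049 (Slc1a2) to 0.70 (Gjb6). Libraries of the same mouse and region share depth and dissection, and these r carry no p.

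**Figure D5:**
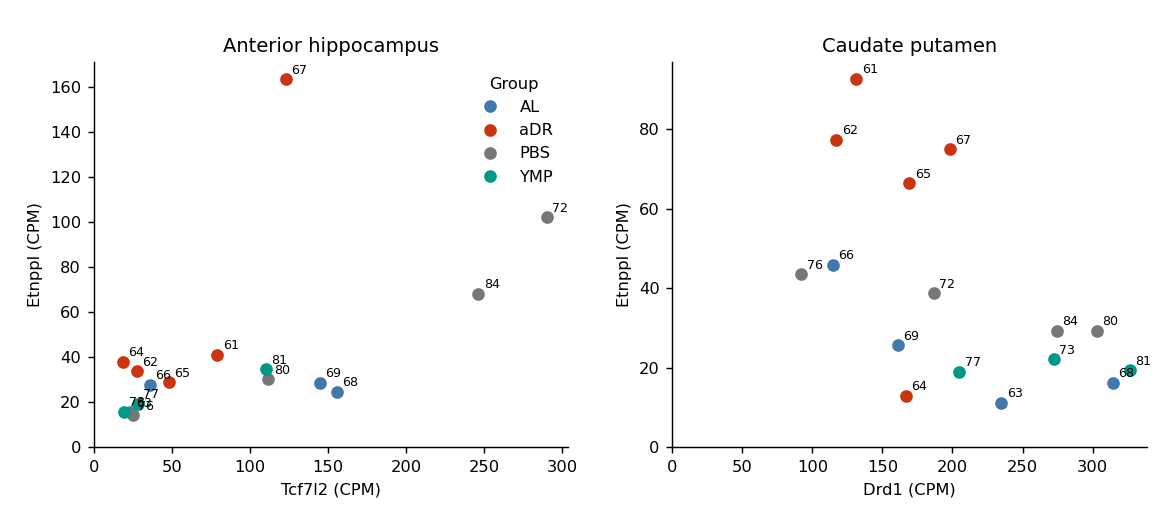
Etnppl (CPM) against Tcf7l2 in anterior hippocampus and against Drd1 in caudate putamen (CPM), with 1 point per library, coloured by group and numbered by mouse. In anterior hippocampus the PBS libraries of mice 72 and 84 are high in both genes, and in caudate putamen aDR mouse 64 (12.9 CPM) lies under the other aDR libraries (66.4 to 92.8 CPM) at a similar Drd1 level.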

How the data were processed

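Read counts per gene, whole numbers in a single table the authors deposited, were used for 238 libraries; 0 columns were unused and 537 rows had no count. Per the labels' protocols, RNA was isolated with RNeasy columns, copied with Smart-Seq2 and made into unstranded Nextera XT libraries. The submitters' processing notes name Trim Galore 0.3.7, STAR 2.5.3a, DESeq2 and GRCm38; the counting program and annotation are not given in the sources used here. PCR reads carry no molecular identifiers in the labels, so counting error is a lower limit of the error.

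The gene, the lists and the tests were chosen with earlier results of these data known. CPM, computed here, are a gene's counts over the library's total in M. Each region was compared with edgeR 4.0.16 (quasi-likelihood test, filterByExpr with a minimum count of 10 and minimum total of 15, TMM, no covariates; R 4.3.3). Across regions, each mouse gave 1 value, fitted as the mouse effect in log2 CPM (prior count 2) beside that of region, and tested with limma 3.58.1. Regions were contrasted over AL and PBS mice with experiment as covariate. That fit and the region by plasma interaction used a trended dispersion and, in the main fit, no mouse term. Benjamini-Hochberg adjustment was used throughout, with a call at an adjusted p under 0.05. Astrocyte and other marker sums are CPM over the list. The share of variance between mice came from nlme 3.1.168. Scripts were tested on simulated data. Alternatives were DESeq2 1.42.0, RLE size factors, no filter, a prior count of 0.5, voom with and without the mouse as a block, left-out regions and left-out mice.

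Named genes were, from each list, those called in an across-region or liver comparison and otherwise the 3 with the largest difference, plus the 5 genes most like Etnppl by either measure, except 1 list gene that is not reported here; Etnk1, Etnk2, Pcyt2, Adh5, Cx3cr1, Phykpl, Tcf7l2, Neurod6, Drd1, Mbp, Ntsr2, Mlc1, Aldh1l1, Slc1a2, Slc4a4, Pecam1, Slco1a4 and Ly6c1 were added for their role, after values were seen. Mouse numbers mark the same animal in all its regions and so pair libraries across regions, never across treatments; the correlation of deviations over genes averaged 0.044 for the same mouse and -0.0054 for other mice in the diet experiment, and 0.093 and -0.016 in the plasma experiment. In 357 pairs of replicate libraries chi-square over its degrees of freedom was 1.29 or more, so each counted as its own replicate.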

Additional observations from a re-analysis of the deposited data

Results flagged for a closer look

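A single mouse lay far from the rest of its group in 3 of the 42 groups examined. About 1 in 20 such groups, here 2.1, is flagged by chance. In entorhinal cortex PBS mouse 72 had 42.7 CPM of Etnppl and the others 15.9 to 18.5 CPM. In anterior hippocampus aDR mouse 67 had 163 CPM and the others 28.9 to 41.1 CPM. In olfactory bulb aDR mouse 67 had 120 CPM and the others 74.5 to 86.9 CPM.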

How the results depend on the processing

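The 80 results were recomputed under 1027 alternative values in all. The Etnppl difference for diet kept its direction in every region, in liver and across regions under each alternative run, among them voom with the mouse as a replicate block (0.86) and without it (0.86). Across regions it ran from 0.74 to 0.95 with a mouse left out. Its limma call, from which nothing is read, was lost without mouse 61, 62, 63, 65, 66, 68 or 69, with no filter, with a prior count of 0.5, without choroid plexus and corpus callosum and without the pons library of mouse 67. For plasma across regions the block gave -0.12 and changed no call for Etnppl, and left-out mice gave -0.22 to -0.0021. Within regions, leaving out a mouse turned the direction in cerebellum (-0.034 to 0.18), choroid plexus (-0.61 to 0.080), entorhinal cortex (-0.14 to 0.65), hypothalamus (-0.23 to 0.052) and motor cortex (-0.032 to 0.19), and DESeq2 called caudate putamen (-0.81). With their direction kept, left-out mice gave 0.14 to 0.53 in corpus callosum, 0.0066 to 0.18 in olfactory bulb, 0.12 to 0.38 in visual cortex, -0.58 to -0.20 in SVZ and -0.25 to -0.033 in thalamus. Among regions of control mice, left-out mice gave -0.50 to -0.37 in choroid plexus, -0.63 to -0.22 in anterior hippocampus, 0.19 to 0.30 in olfactory bulb and 0.035 to 0.32 in SVZ, with calls gained or lost. PBS mice alone gave 0.063 in anterior hippocampus, with the direction turned, -0.38 in choroid plexus, -0.54 in motor cortex and 0.22 in pons, and AL mice alone gave -0.48 in choroid plexus, -0.87 in anterior hippocampus and 0.39 in olfactory bulb; these use fewer mice. The block gave -0.40 in anterior hippocampus and changed no other call among regions. Voom with the block called more list genes: for diet 3 astrocyte, 1 choline, 1 ethanolamine, 1 pyridoxal phosphate enzyme and 4 endothelial genes, and for plasma 1 choline, 6 choroid plexus and 1 hepatocyte gene. Without the block it called for diet 3, 2, 3, 1 and 4 of the same lists and 1 microglia gene, and for plasma 3 astrocyte, 3 choline, 6 choroid plexus, 1 endothelial, 1 ethanolamine, 1 hepatocyte, 1 microglia and 1 pyridoxal phosphate enzyme gene. These fits called 9.44% and 17.7% of all genes for diet and 3.08% and 16.7% for plasma. The endothelial count of 2 for diet was 1 with no filter, 1 without anterior hippocampus and caudate putamen (chosen after seeing the data), 0 without choroid plexus and corpus callosum and 0 to 1 with a mouse left out. With a mouse left out the astrocyte count for diet was 0 to 1 and the pyridoxal phosphate enzyme count in liver 0 to 1, and DESeq2 called 1 endothelial and 1 ethanolamine gene in liver. The causes of these shifts were not tested. Leaving out the pons library of aDR mouse 67, also chosen after seeing the data, changed no list count. Depth was lowest in olfactory bulb of YMP mouse 73, with 26 counts of Etnppl. Group sizes of 2 to 5 mice limit the rest.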
